A study of Homo sapiens with 83 samples.

Results

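The 45 genes described here act when a cell enters and passes through mitosis. They were taken by symbol from a list of mitotic entry, spindle and kinetochore genes, and each of the 45 symbols matched exactly 1 of the 60237 genes measured. All 45 passed the filter on low values in both cell lines, which left 14362 genes tested in SHEP and 13886 in SKNAS. RNA was measured in SHEP and SKNAS, established human neuroblastoma cell lines with a transgene for N-MYC-ER, in which the N-MYC transcription factor is joined to an estrogen receptor domain. The fusion is made at all times and enters the nucleus only after 4-hydroxytamoxifen (4OHT). MYC-ON denotes 4OHT treatment, and MYC-OFF treatment with ethanol as vehicle. All cells of both conditions then received dexamethasone to entrain the circadian clock, and CT is the number of hours since. Libraries were made every 4 h from CT24 to CT76. SHEP had 28 MYC-OFF and 28 MYC-ON libraries, from 2 replicate series of 14 time points. SKNAS had 14 MYC-OFF and 13 MYC-ON libraries from 1 series, with MYC-ON ending at CT72. The vehicle, the dexamethasone and the unactivated fusion are therefore shared by the controls, and the constitutive fusion models a MYC that is no longer under its own promoter.

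Levels are given in TPM, a length-scaled share of each library's transcripts (total 1e+06), and differences on the log2(TPM + 1) scale. A gene was called when limma's adjusted p was at most 0.05 and the log2 change at least 0.15 in size. Libraries of a series are successive time points of 1 experiment, so p-values measure the spread between libraries. MYCN, which the fusion also reports on, had a median of 560 TPM in MYC-OFF and 353 in MYC-ON of SHEP, and of 612 and 309 TPM in SKNAS, so its RNA was not higher in MYC-ON, and its level does not check activation. Of 10 mesenchymal neuroblastoma markers, 10 reached a median of 1 TPM in SHEP and 9 in SKNAS, against 3 and 5 of 10 adrenergic markers. SKNAS libraries differed in their overall distribution. The median over all genes of a library on the log2 scale ran from 2.76 to 4.38 in SKNAS and from 3.93 to 4.17 in SHEP, and 10 of 13 MYC-ON but 4 of 14 MYC-OFF SKNAS libraries lay below 3.8. SKNAS differences between conditions are therefore given also after rescaling libraries by the median of ratios and with the library median as a covariate.

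Mitosis starts when cyclin B bound to CDK1 is freed from inhibitory phosphorylation, placed by WEE1 and removed by the CDC25 phosphatases. Polo-like and Aurora kinases then build the spindle, kinetochores attach chromosomes to its microtubules, and the spindle checkpoint holds back the CDC20-activated anaphase-promoting complex until every chromosome is attached. The transcripts of these genes accumulate in late cell cycle phases, and many of the promoters carry a cell cycle homology region (CHR) and CCAAT boxes, through which the DREAM and B-MYB-MuvB-FOXM1 complexes act. MYC and N-MYC bind E-boxes. In bulk RNA, fewer cells in mitosis and less mitotic RNA per cell cannot be told apart.

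Promoters of 4 members are shown, since most member promoters with an entry held a CHR word and most a CCAAT box, as counted below. They are RefSeq sequences of GRCh38.p14, and all lie on the plus strand. Each runs from 250 bases before to 50 bases after a start used in RefSeq, which need not be the annotated gene start. Capitals mark the CHR words TTTGAA and TTTAAA, the CCAAT box and the E-box CACGTG, searched on both strands, so that TTCAAA and ATTGG are reverse reads. PLK1 (chr16:23678639-23678938) and CCNB1 (chr5:69166900-69167199) were higher in SHEP MYC-ON over the whole course, and CDC20 (chr1:43358731-43359030) was not called there. All of PLK1, CCNB1 and CDC20 changed direction in SHEP, called higher in MYC-ON from CT24 to CT40 and lower from CT64 to CT76. KIF11 (chr10:92592880-92593179) was lower in MYC-ON of both lines as deposited.
PLK1: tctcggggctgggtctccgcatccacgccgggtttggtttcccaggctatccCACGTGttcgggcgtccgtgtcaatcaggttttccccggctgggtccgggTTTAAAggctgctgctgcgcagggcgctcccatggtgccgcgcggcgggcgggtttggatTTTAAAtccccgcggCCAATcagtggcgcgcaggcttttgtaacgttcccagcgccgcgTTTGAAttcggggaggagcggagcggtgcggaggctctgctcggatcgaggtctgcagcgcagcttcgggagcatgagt
CCNB1: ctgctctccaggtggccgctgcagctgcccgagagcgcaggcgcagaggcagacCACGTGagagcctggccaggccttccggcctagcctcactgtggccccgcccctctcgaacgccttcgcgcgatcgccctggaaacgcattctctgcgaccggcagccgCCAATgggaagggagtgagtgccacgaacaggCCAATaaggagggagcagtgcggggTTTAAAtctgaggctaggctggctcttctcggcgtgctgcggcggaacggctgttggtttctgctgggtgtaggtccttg
CDC20: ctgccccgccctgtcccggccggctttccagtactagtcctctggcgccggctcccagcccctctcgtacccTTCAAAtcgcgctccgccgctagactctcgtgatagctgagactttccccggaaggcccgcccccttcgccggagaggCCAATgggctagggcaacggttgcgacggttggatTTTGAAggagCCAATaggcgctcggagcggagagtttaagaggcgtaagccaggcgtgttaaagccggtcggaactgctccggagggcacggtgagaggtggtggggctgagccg
KIF11: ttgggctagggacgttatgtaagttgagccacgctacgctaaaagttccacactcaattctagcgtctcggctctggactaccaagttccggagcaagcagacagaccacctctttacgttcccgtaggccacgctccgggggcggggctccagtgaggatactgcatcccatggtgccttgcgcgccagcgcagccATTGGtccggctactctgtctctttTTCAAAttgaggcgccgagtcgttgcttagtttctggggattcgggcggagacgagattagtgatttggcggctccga
A CHR word started 29 bases before the RefSeq start in PLK1 (position -29), at -30 in CCNB1, at -65 and -178 in CDC20, and at -28 in KIF11. The PLK1 promoter held 2 further TTTAAA words and 1 CCAAT box, CCNB1 and CDC20 held 2 CCAAT boxes each, and KIF11 held 1. The E-box stood at -198 in PLK1 and -196 in CCNB1, and the windows of CDC20 and KIF11 held none.

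RefSeq promoters were at hand for 37 of the 45 members, in 47 entries because some genes have several starts. WEE1, AURKA, BIRC5, BUB3, TTK, UBE2C, TPX2 and FOXM1 had no entry. Of the 47 member promoters, 35 (74.5%) held a CHR word, against 24.0% of all 35116 promoters of the same length. TTTGAA was in 59.6% of them against 15.2%, and TTTAAA in 27.7% against 12.2%. A CCAAT box was in 36 (76.6%) against 34.6%, and both elements were in 27 (57.4%) against 9.27%. The E-box CACGTG was in 5 (10.6%) against 7.26% of all promoters. By gene, 31 of the 37 members had a CHR word, 31 a CCAAT box and 5 the E-box, and a match is a description of letters, not of binding.

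MYC-ON was first compared with MYC-OFF in SHEP over the whole course at matched CT. PLK1, CDC25B, AURKB and MAD2L1 were among the members called higher, and NDC80, NUF2, SPC24, KIF11 and ANLN among those called lower. The calls did not divide by role. The spindle genes HMMR and KIF20A were also higher, while the cyclins CCNB2 and CCNF and the kinases NEK2 and TTK were lower. In all, 13 of 45 were higher, where 33.0% of all genes tested were, and 15 of 45 lower, where 38.9% were. The members' median difference was -0.10 against -0.04 over all genes, so neither share stood above the background, and all but 1 of the changes stayed under 1.5-fold. Without series 1 these were 7 higher and 12 lower, and without series 2 they were 10 and 9. No share of all genes is given for these fits, so the lower counts cannot be set against a background.

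**Figure D1:**
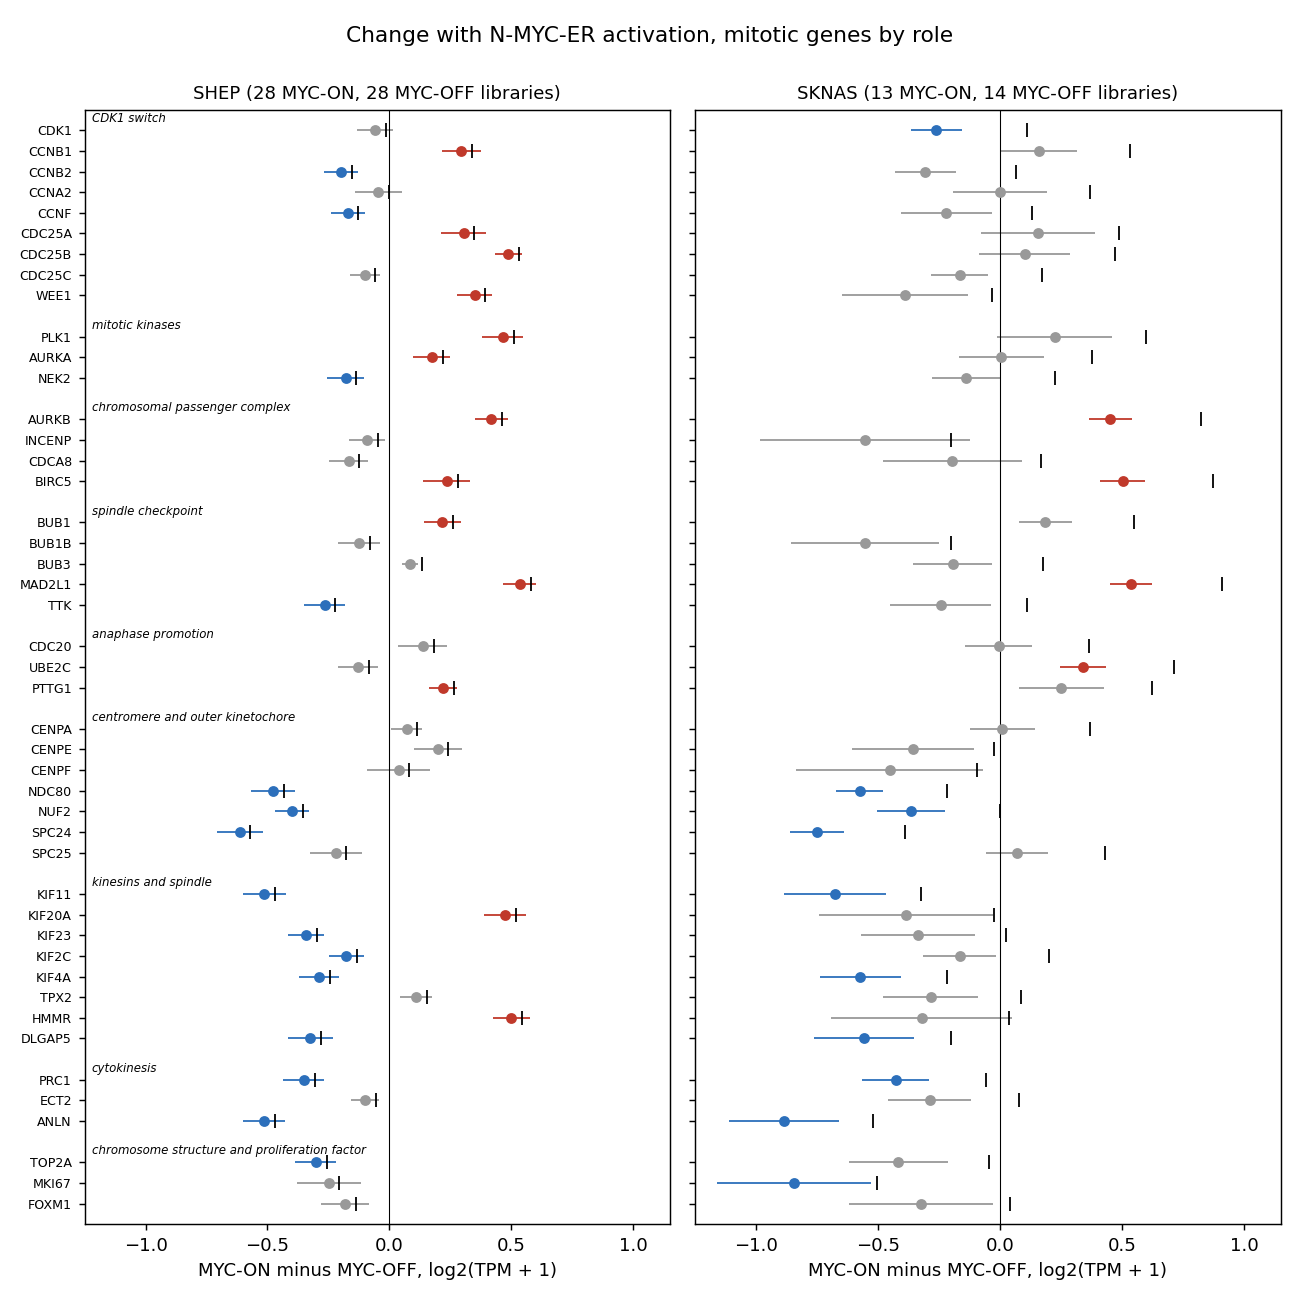
Change of each of the 45 genes in SHEP (left) and SKNAS (right), as MYC-ON minus MYC-OFF on the log2(TPM + 1) scale. Points are limma estimates with standard errors as bars, red higher and blue lower where called and grey otherwise, and black ticks are the same estimates after median-of-ratios rescaling. The ticks lie close to the points in SHEP and to the right of them in SKNAS, where 12 rather than 4 genes are called higher after rescaling.

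Of the 9 genes of the CDK1 switch, 4 were higher (background 33.0%) and 2 lower (background 38.9%) in SHEP. CDC25B, a phosphatase that activates CDK1, ran from 27.3 to 47.4 TPM in MYC-OFF (median 36) and from 33.9 to 68 in MYC-ON (median 53.9). The groups overlapped, but 20 of 28 MYC-ON libraries were above every MYC-OFF library, and the log2 change was 0.49 ± 0.055 (SE; limma adjusted p = 5.89e-11). CCNB1, cyclin B1, was between 97.7 and 172 TPM in MYC-OFF (median 137) and between 87.7 and 214 in MYC-ON (median 181). Its range in MYC-ON was wider at both ends, with 16 libraries above and 3 below all MYC-OFF libraries, and its change was 0.30 ± 0.079 (limma adjusted p = 0.000836). WEE1, the inhibitory kinase, rose by 0.35 ± 0.071 (limma adjusted p = 2.06e-05) and was higher in 26 of 28 matched pairs, and CDC25A rose by 0.30 ± 0.092. Cyclins B2 (CCNB2, -0.20) and F (CCNF, -0.17) were lower. CDK1 itself had medians of 39.9 TPM in MYC-OFF and 38.1 in MYC-ON, a difference of -0.06 ± 0.074 (limma adjusted p = 0.472), and was lower in 16 of 28 pairs.

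PLK1, the Polo-like kinase of centrosome maturation and mitotic entry, had a median of 75.0 TPM in MYC-OFF (44.7 to 90.9) and 110 in MYC-ON (55.9 to 135). It was higher in 22 of 28 matched pairs, with 18 MYC-ON libraries above all MYC-OFF libraries, and its change was 0.46 ± 0.085 (limma adjusted p = 3.93e-06). Of the other centrosomal kinases, AURKA was higher by 0.17 and NEK2 lower by a log2 change of -0.18. In the chromosomal passenger complex, which corrects faulty attachments, the kinase AURKB rose by 0.42 ± 0.068 (limma adjusted p = 4.08e-07), from a median of 48.3 TPM (33.2 to 60.8) to 67.1 (39.95 to 84.4). Survivin, BIRC5, rose by 0.24 ± 0.095 (limma adjusted p = 0.0236). The scaffold INCENP (-0.09) and borealin, CDCA8 (-0.17), were not called.

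MAD2L1, the checkpoint protein that binds CDC20, showed the largest rise of the 45 in SHEP. It was between 29.3 and 51.6 TPM in MYC-OFF (median 40.9) and between 35.7 and 87.0 in MYC-ON (median 63.5). Of the MYC-ON libraries, 22 of 28 lay above all MYC-OFF libraries, and the change was 0.53 ± 0.069 (limma adjusted p = 2.89e-09). The checkpoint kinase BUB1 was higher by 0.22 and the checkpoint kinase TTK lower, at -0.26, while BUB1B (-0.12) and BUB3 (0.09) were not called. Of the genes that act on anaphase, securin (PTTG1) was higher by 0.22 ± 0.057, and CDC20 (0.14) and UBE2C (-0.13) were not called.

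Of 7 centromere and outer kinetochore genes, 0 were higher (background 33.0%) and 3 were lower (background 38.9%). These 3, NDC80, NUF2 and SPC24, are subunits of the 4-part NDC80 complex, which grips microtubules. SPC24 fell the most of all members, from a median of 12.9 TPM (7.79 to 17.7) to 7.98 (2.37 to 12.4), a log2 change of -0.61 ± 0.094 (limma adjusted p = 1.24e-07). It was lower in 25 of 28 pairs, with 12 MYC-ON libraries below all MYC-OFF libraries, and was the only member past 1.5-fold in SHEP. NDC80 changed by -0.48 ± 0.090 and NUF2 by -0.40 ± 0.070, both lower in at least 25 of 28 pairs. The last subunit, SPC25, was at -0.22 ± 0.107 (limma adjusted p = 0.0588) and did not pass. CENPA, the centromeric histone, and the kinetochore proteins CENPE and CENPF were not called, at 0.07, 0.20 and 0.04.

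The 8 kinesins and spindle factors moved both ways. KIF11, the motor that pushes spindle poles apart, had a median of 17.7 TPM in MYC-OFF (11.1 to 22.2) and 12.7 in MYC-ON (4.89 to 15.9). It was lower in 26 of 28 pairs, and its change was -0.51 ± 0.089 (limma adjusted p = 1.66e-06). KIF23 (-0.34), DLGAP5 (-0.32), KIF4A (-0.29) and KIF2C (-0.18) were lower as well. KIF20A, a kinesin of the central spindle, was higher by 0.47 ± 0.088, and HMMR, a spindle pole protein, by 0.50 ± 0.076, the latter in 25 of 28 pairs. HMMR had medians of 25.3 TPM in MYC-OFF (16.3 to 33.1) and 35.2 in MYC-ON (20.8 to 54.7). Of the cytokinesis genes, anillin (ANLN), which scaffolds the cleavage furrow, went from a median of 87 TPM (54.1 to 100.9) to 60.5 (23.9 to 77.6), at -0.51 ± 0.086 and the midzone bundler PRC1 at -0.35 ± 0.084, while ECT2 (-0.10) was not called. TOP2A, which untangles sister chromatids, was lower by a log2 change of -0.30 ± 0.083. MKI67, the Ki-67 antigen (-0.25 ± 0.132, limma adjusted p = 0.0840), and FOXM1, a transcription factor for late cell cycle genes (-0.18 ± 0.1, limma adjusted p = 0.0944), did not pass. MKI67 ran from 9.11 to 30.2 TPM in MYC-OFF (median 18.6) and from 6.42 to 26.1 in MYC-ON (median 13.6), and FOXM1 had medians of 50.3 (35.2 to 62.5) and 49.6 (17.0 to 64.8).

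These counts moved with the scaling. With the library median as a covariate, chosen after the data were seen, 19 members were higher (background 35.3%) and 5 lower (background 33.3%). After rescaling 15 were higher (background 36%) and 12 lower (background 35.8%). The 5 that stayed lower with the covariate were NDC80, NUF2, SPC24, KIF11 and ANLN.

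Over culture time most of the 45 genes fell in SHEP MYC-ON, and few had a called slope in MYC-OFF. In MYC-ON, 38 of 45 fell from CT24 to CT76, against a background of 37.1% of all genes, and 1 rose, WEE1, against 20.2%. In MYC-OFF, 0 fell (background 5.44%) and 1 rose, UBE2C (background 3.40%), while 8 members had an unadjusted p under 0.05 (background 21.4%). The median slope was -0.34 log2 units per 24 h in MYC-ON and 0.08 in MYC-OFF, against -0.05 and -0.02 over all genes. The slope was called lower in MYC-ON than in MYC-OFF for 39 of 45 (background 25.2%) and called higher for 0 (background 14.6%).

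**Figure D2:**
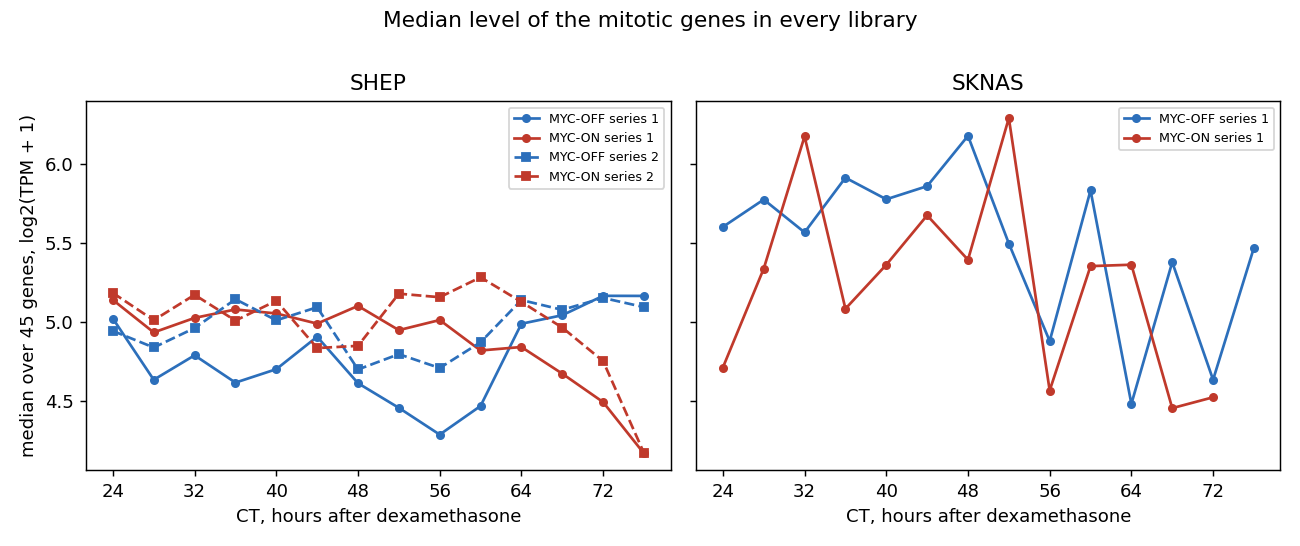
Median level of the 45 genes in every library against CT, for SHEP (left, 2 series per condition) and SKNAS (right, 1 series). Red is MYC-ON and blue MYC-OFF, with solid lines for series 1 and dashed lines for series 2. In SHEP the MYC-ON lines drop at the end to 4.17 in both series, while the MYC-OFF lines dip between CT44 and CT60 and recover, and in SKNAS both lines jump between neighbouring time points.

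The largest slope differences belonged to BIRC5, CDC20, FOXM1, CDC25A, CCNA2 and SPC25. CDC20, the activator of the anaphase-promoting complex, averaged 122 ± 6.09 TPM (SD, n = 8) at the first 4 time points of MYC-ON and 56.3 ± 14.2 at the last 4. In MYC-OFF it averaged 84.2 ± 7.88 and then 93.8 ± 6.85, so the order of the conditions turned round. Its slope was -0.67 ± 0.067 log2 units per 24 h in MYC-ON and 0.05 ± 0.067 in MYC-OFF, and the difference was -0.72 ± 0.095 (limma adjusted p = 2.13e-08). FOXM1 went from 60.3 ± 2.91 to 25.5 ± 6.51 TPM (SD, n = 8) in MYC-ON and had means of 53.1 and 54.3 at the same ends of MYC-OFF, where its lowest value in between was 35.2, a slope difference of -0.71 ± 0.094 (limma adjusted p = 2.13e-08). BIRC5 went from 104 ± 8.76 to 49.5 ± 10.3 TPM in MYC-ON and from 63.1 ± 6.30 to 74.5 ± 5.51 in MYC-OFF (SD, n = 8), a difference of -0.76 ± 0.079 (limma adjusted p = 4.22e-11).

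CDC25A fell from 22.3 to 10.1 TPM in MYC-ON between the same ends of the course, and in MYC-OFF its means were 13.8 and 14.2. Cyclin A2 (CCNA2) fell from 44.2 to 24.2 TPM in MYC-ON, with means of 35.4 and 43.6 in MYC-OFF. SPC25 fell from 14.05 to 9.30 TPM in MYC-ON, with means of 12.4 and 17.7 in MYC-OFF. Slope differences were smaller but called for CCNB1 (-0.50), PLK1 (-0.55), AURKB (-0.39), MKI67 (-0.49), CDK1 (-0.38) and UBE2C (-0.62). The 6 members without a called difference were CDC25C (-0.05), WEE1 (0.06), NUF2 (-0.23), HMMR (-0.13), ECT2 (-0.19) and TOP2A (-0.28).

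**Figure D3:**
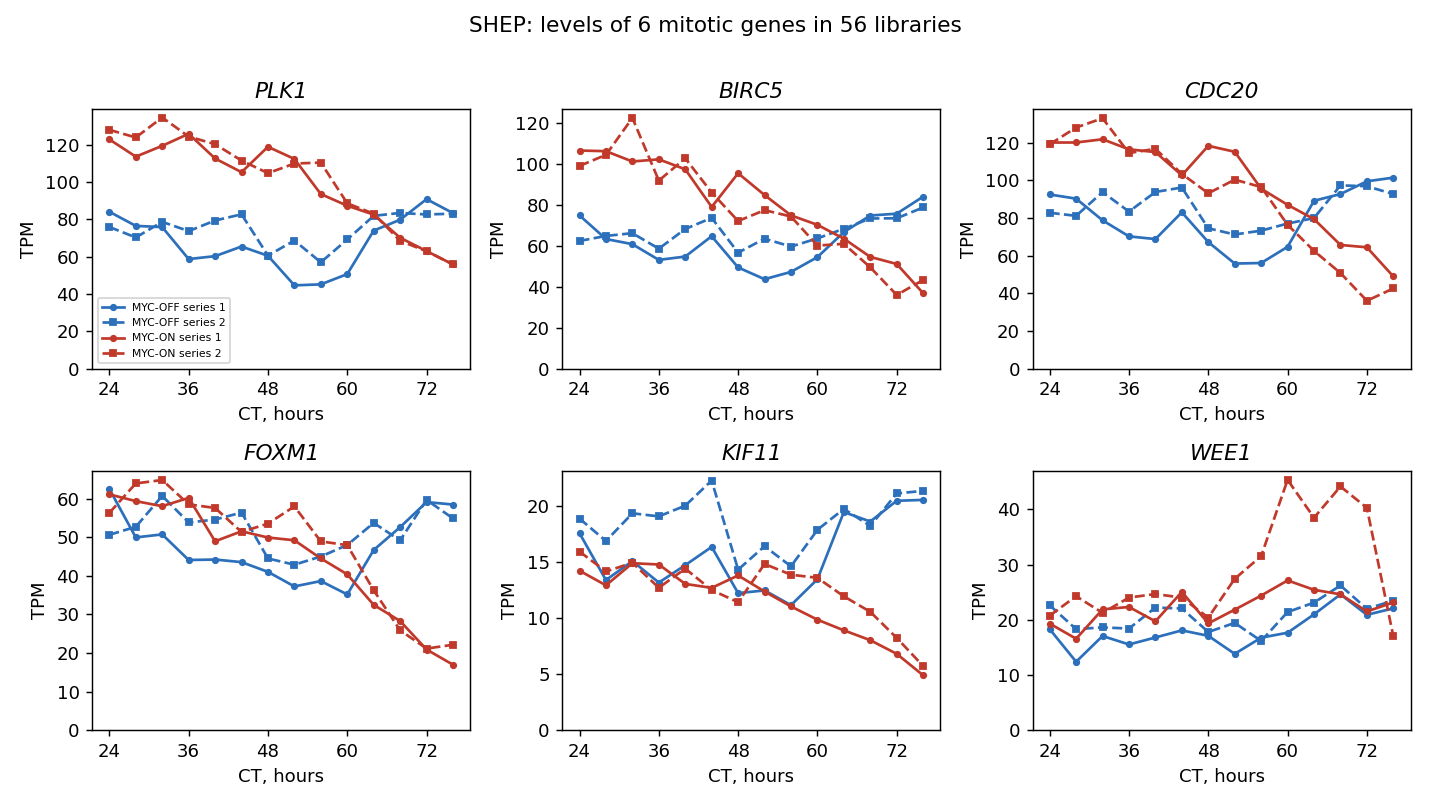
TPM of PLK1, BIRC5, CDC20, FOXM1, KIF11 and WEE1 in the 56 SHEP libraries against CT, with MYC-ON in red, MYC-OFF in blue, solid lines for series 1 and dashed lines for series 2. PLK1, BIRC5 and CDC20 start above the controls and end below them, KIF11 starts below them and ends at 4.89 and 5.72 TPM, and WEE1 reaches 45.4 TPM in series 2 of MYC-ON but 27.1 in series 1.

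The fall was late. In MYC-ON, 43 of 45 members in series 1 and 44 of 45 in series 2 had their lowest value between CT64 and CT76, and at CT76 alone these were 38 and 34 members. In MYC-OFF, 40 of 45 in each series had their lowest value between CT44 and CT60. At CT56, 40 members in series 1 and 38 in series 2 were higher in MYC-ON than in MYC-OFF. At CT72 these were 3 and 4, and at CT76 they were 1 and 0. The counts by time point were made for the members only. As 37.1% of all genes fell in MYC-ON, how far this timing was particular to the members cannot be told from these counts. A squared term for CT, added after the data were seen, was positive for all 45 in MYC-OFF with 15 called (background 0.494%) and negative for all 45 in MYC-ON with 29 called (background 6.94%). A fit without CT68, CT72 and CT76 was also tried after the data were seen. In it, 18 rather than 38 members fell in MYC-ON and 3 rather than 39 had a lower slope. The share of all genes called in that fit is not given here, so no background stands beside these counts.

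The comparison was therefore repeated in 3 stretches of the course, set after the data were seen. From CT24 to CT40, 21 of 45 were higher in MYC-ON (background 29.8%) and 6 lower (background 34.6%), with a members' median of 0.17 against -0.03 over all genes. From CT44 to CT60, 20 were higher (background 32.3%) and 3 lower (background 33.2%), with a median of 0.14 against -0.0015. From CT64 to CT76, 0 were higher (background 26.3%) and 34 lower (background 38.0%), with a median of -0.65 against -0.09. HMMR (0.13), CDC25B (0.11) and WEE1 (0.28) kept positive values in the last stretch without passing the test.

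**Figure D4:**
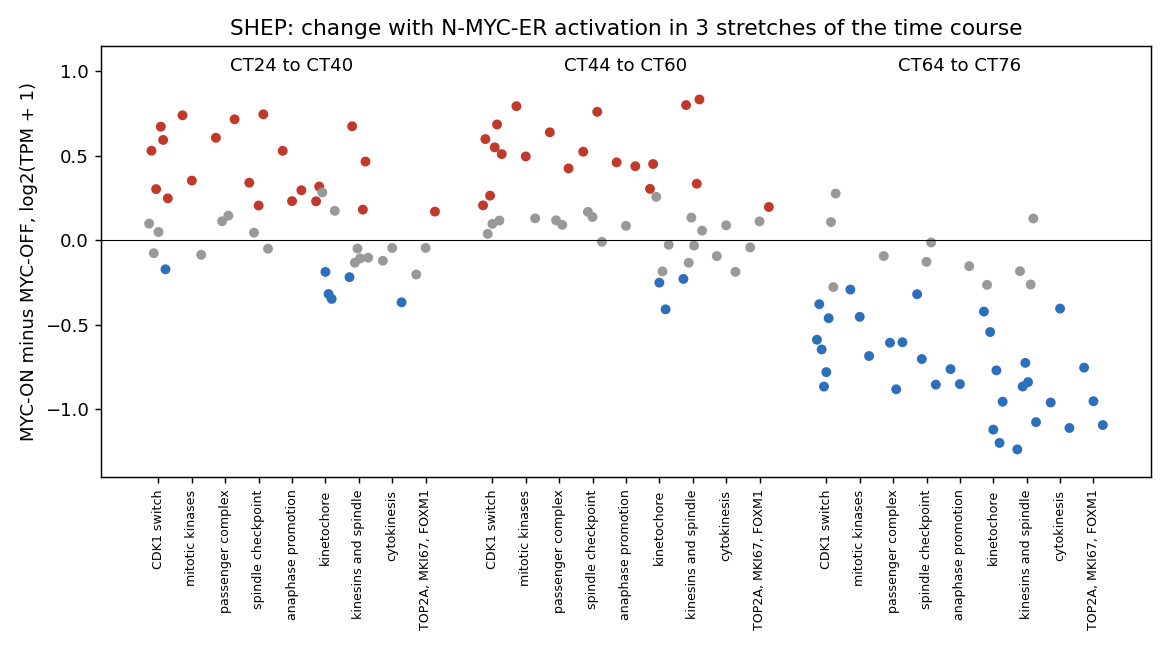
MYC-ON minus MYC-OFF for each of the 45 genes in SHEP, on the log2(TPM + 1) scale, by role and in 3 stretches of the time course. Red points are called higher, blue lower and grey neither. In the earlier stretches 21 and 20 genes are called higher, and in the last stretch 34 are called lower and none higher.

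PLK1 was higher by 0.74 ± 0.058 in the earliest stretch and 0.79 ± 0.092 in the middle one, and lower in the last, at -0.29 ± 0.083 (limma adjusted p = 0.00662). CCNB1 went from 0.53 and 0.60 to -0.38, CDC20 from 0.53 and 0.46 to -0.76, and BIRC5 from 0.72 and 0.43 to -0.60, each called in all 3 stretches. MAD2L1 (0.75, 0.76 and -0.01), AURKB (0.61, 0.64 and -0.09) and KIF20A (0.67, 0.80 and -0.18) were higher in the earlier stretches and not called in the last. KIF11 (-0.22, -0.23 and -1.24), SPC24 (-0.35, -0.41 and -1.20) and NDC80 (-0.19, -0.25 and -1.12) were called lower in all 3. DLGAP5, a spindle factor, had -0.10 and 0.06 in the earlier stretches and -1.08 in the last, and FOXM1 had 0.17 and 0.20 and then -1.09. CDK1 had 0.10, then 0.21, then -0.59, the last of these with a limma adjusted p of 0.000549.

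Other measures moved with this late fall. The median of 33 S phase genes lay between 4.94 and 5.30 on the log2 scale in MYC-ON from CT24 to CT40 and between 4.28 and 4.77 from CT64 to CT76, and in MYC-OFF between 4.61 and 5.02 and then 4.86 and 5.08. All 33 fell over the course in MYC-ON (background 37.1%). The library median ran from 3.98 to 4.12 early and from 3.93 to 4.10 late in MYC-ON. With it as a covariate, 26 rather than 38 members fell in MYC-ON and 34 rather than 39 had a lower slope there. Shares over all genes are not given for this fit, so a change particular to the members cannot be read from these counts. The part of these measures in the late fall was not tested.

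Within a group the members followed each other. Over the 28 MYC-ON libraries of SHEP, Pearson's r of a member with the median of the other members had a median of 0.815 and was highest for ANLN (0.969), and in MYC-OFF the median was 0.859 with KIF11 highest (0.954). WEE1 (0.202) and CDC25C (0.435) followed least in MYC-ON, and BUB3 (0.310) and CDC25A (0.358) in MYC-OFF. These libraries share their culture and their time order, so the values describe the course and are no test.

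In SKNAS fewer members passed. As deposited, 4 of 45 were higher in MYC-ON (background 13.7%) and 10 lower (background 34.4%), with a members' median of -0.26 against -0.29 over all genes. After rescaling, 12 were higher (background 27.6%) and 4 lower (background 23.9%), with a median of 0.11 against 0.03. With the library median as covariate, 21 were higher (background 28.3%) and 3 lower (background 26.1%), with a median of 0.21 against 0.01. The sign of the members' median thus depended on the scaling. Over the 27 libraries the members' median and the library median had a Pearson's r of 0.941, against 0.439 over the 56 SHEP libraries, and both are taken from the same library.

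**Figure D5:**
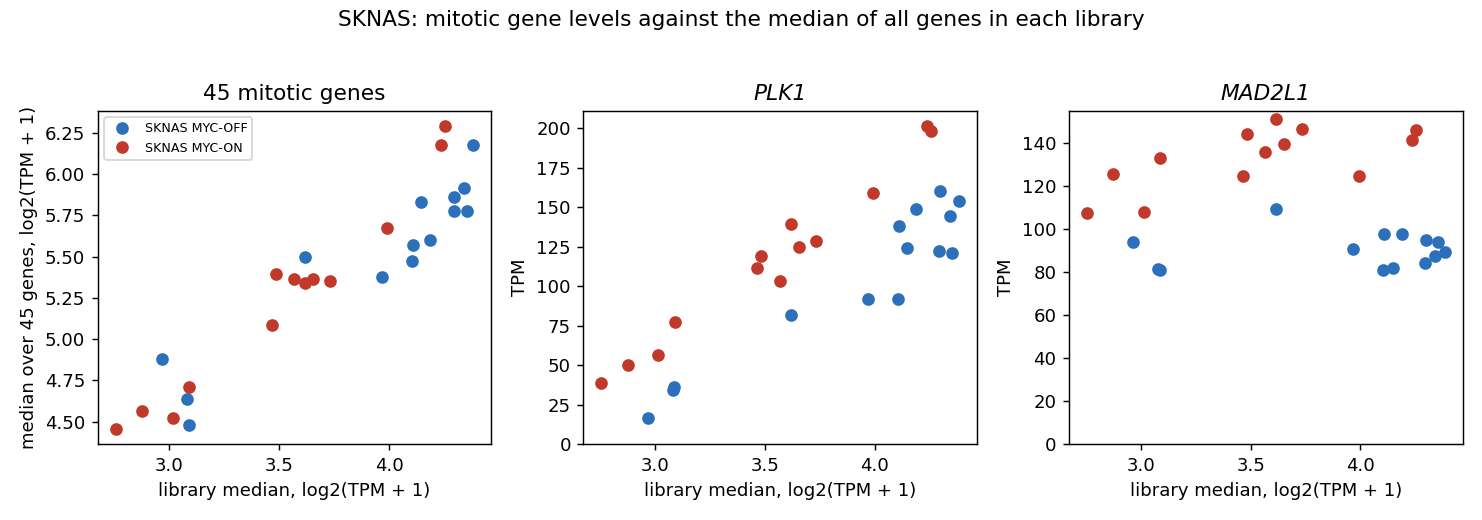
SKNAS libraries, with the library median over all genes on the x axis of each panel, in log2(TPM + 1). The y axes show the median of the 45 genes on the same scale, then PLK1 and MAD2L1 in TPM, with MYC-ON in red and MYC-OFF in blue. The members' median and PLK1 climb with the library median in both conditions, while MAD2L1 is higher in MYC-ON at nearly every library median.

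The genes called higher in SKNAS under all 3 scalings were MAD2L1, BIRC5, AURKB and UBE2C. MAD2L1 ran from 80.9 to 109 TPM in MYC-OFF (median 90.2) and from 108 to 151 in MYC-ON (median 136). It was higher in 13 of 13 matched time points, with 11 of 13 MYC-ON libraries above all MYC-OFF libraries, and its change was 0.54 ± 0.087 (limma adjusted p = 0.000141), 0.91 after rescaling and 0.56 with the covariate. BIRC5 went from a median of 91.2 TPM (75.4 to 116) to 136 (115 to 149), also in 13 of 13 time points, at 0.50 ± 0.093, 0.87 and 0.53. AURKB went from 127 TPM (103 to 149) to 176 (143 to 247), in 13 of 13, at 0.45 ± 0.089, 0.82 and 0.39. UBE2C, the ubiquitin-conjugating enzyme of the anaphase-promoting complex, went from 210 TPM (166 to 256) to 270 (223 to 328), at 0.34 ± 0.094, 0.71 and 0.30.

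Of the genes called lower in SKNAS, 4 passed 1.5-fold: ANLN, MKI67, SPC24 and KIF11. SPC24 separated the groups fully. It ran from 29.1 to 42.9 TPM in MYC-OFF (median 35.2) and from 13.02 to 28.1 in MYC-ON (median 20.9), a change of -0.75 ± 0.111 (limma adjusted p = 5.99e-05) and of -0.88 with the covariate. After rescaling it was -0.39 and not called (limma adjusted p = 0.114). NDC80 was lower in 13 of 13 time points, with -0.58 ± 0.097, -0.22 after rescaling (not called) and -0.51 with the covariate. ANLN, with a median of 72.8 TPM (24.8 to 124) in MYC-OFF and 38.4 (14.03 to 106) in MYC-ON, was called under all 3, at -0.89 ± 0.226, -0.52 and -0.37. KIF11 had medians of 27.2 TPM (9 to 39.7) and 14.2 (7.58 to 35.9), and MKI67 of 20.2 (3.27 to 35.8) and 8.26 (2.43 to 23.8), with wide overlap. KIF11 was at -0.68 ± 0.208, -0.32 and -0.18, and MKI67 at -0.84 ± 0.315, -0.50 and -0.04, so that neither was called with the covariate. DLGAP5 (-0.56), KIF4A (-0.57), PRC1 (-0.43), NUF2 (-0.36) and CDK1 (-0.26) completed the called genes as deposited. After rescaling, DLGAP5 was at -0.20, KIF4A at -0.22, PRC1 at -0.059 and NUF2 at -0.0014, and with the covariate they were at -0.10, -0.21, -0.18 and -0.16, of which only KIF4A after rescaling was called. CDK1 had medians of 93.3 TPM in MYC-OFF (67.9 to 119) and 78.9 in MYC-ON (53.3 to 101.3), and was at 0.11 after rescaling and -0.16 with the covariate, neither of them called.

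PLK1, CCNB1 and FOXM1 were not called in SKNAS as deposited. PLK1 had medians of 122 TPM in MYC-OFF (16.5 to 160) and 119 in MYC-ON (38.8 to 202), a difference of 0.22 ± 0.237 that became 0.60 and 0.78 under the other scalings, both called. CCNB1 had medians of 210 TPM (91 to 254) and 241 (109 to 326) and a difference of 0.16 ± 0.156, and by 0.53 and 0.47, both called. FOXM1 had medians of 63 TPM (7.44 to 80.6) and 41.3 (8.33 to 77) and a difference of -0.33 ± 0.295, and by 0.04 and 0.40, of which the last was called. Some members ran against the rest across SKNAS libraries. Pearson's r with the median of the other members was -0.770 for PTTG1 and -0.690 for SPC24 over 14 MYC-OFF libraries, and -0.883 and -0.740 over 13 MYC-ON libraries, where the median r was 0.926 and 0.944. AURKB (-0.319 and -0.672) also ran against the rest in both, and in MYC-ON so did BIRC5 (-0.463) and UBE2C (-0.428), all 3 of them called higher. PTTG1 reached 547 TPM in 1 MYC-OFF library against a group median of 209.

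No member had a called slope over culture time in SKNAS. Of all genes, 0.151% were called in MYC-OFF, 0.166% in MYC-ON and 0.0792% for the difference between slopes, by limma. At an unadjusted p under 0.05 these were 24 members in MYC-OFF (background 35.5%), 1 in MYC-ON (background 7.28%) and 1 for the difference (background 2.90%). After rescaling and with the library median as covariate the count of called members was also 0. Without the last time point of each condition, 12 members fell and 1 rose in MYC-OFF. The share of all genes called in that fit is not given here, so a fall particular to the members cannot be read from it. The members' lowest values lay between CT64 and CT76 for 30 of 45 in MYC-OFF and 32 of 45 in MYC-ON, with no count over all genes beside them. With 1 series a slope rests on 14 or 13 libraries that also differed in their medians.

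As deposited, 3 members, AURKB, BIRC5 and MAD2L1, were called higher in both lines (background 11.5% of 12306 genes tested in both), and 8 were lower in both (background 24.1%): NDC80, NUF2, SPC24, KIF11, KIF4A, DLGAP5, PRC1 and ANLN. Of these 8, SKNAS calls held with rescaling for KIF11, KIF4A and ANLN and with the covariate for NDC80, SPC24 and ANLN. Calls in opposite directions numbered 0 (background 2.80%), and 14 members were called in neither line (background 20.1%). The 2 lines were also compared directly, as the MYC effect in SKNAS minus that in SHEP over the same genes. This signed difference was called above 0 for 1 member, UBE2C (background 10.6%). It was called below 0 for 7 (background 38.3%): CDC25B, WEE1, BUB3, CENPE, KIF20A, TPX2 and HMMR. Called or not, it was above 0 for 12 members and below 0 for 33. The called differences moved with the scaling, to 6 called above 0 (background 24.5%) and 3 below (background 22.9%) after rescaling. With the library median as covariate they were 9 (background 23.9%) and 0 (background 20.3%).

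A 24 h rhythm, tested with limma's F test on cosine and sine terms beside a straight trend, was called for 0 members in each of the 4 groups. The lowest adjusted p of a member was 0.448 for MYC-OFF and 0.5005 for MYC-ON of SHEP, and 1 and 0.994 in SKNAS. Over all genes, 7, 2, 0 and 0 were called, so this test called few genes of any kind. The paper tested rhythm with ECHO, which allows a range of periods and damping. It reported rhythmic cell cycle genes in SHEP in both conditions. The methods differ, so a count of 0 here does not show that the members lacked a rhythm. At an unadjusted p under 0.05 SHEP had 9 members in MYC-OFF (background 7.90%) and 8 in MYC-ON (background 6.48%), and SKNAS had 0 (background 0.432%) and 0 (background 0.331%). The dip of MYC-OFF and the late fall of MYC-ON are not straight, so part of either could enter these terms.

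Other mitotic genes were taken from further lists with 103 genes, nearly all of them tested. Of these, 22 were higher (background 33.0%) and 35 lower (background 38.9%) in SHEP MYC-ON. Over the course in MYC-ON, 75 fell (background 37.1%) and 8 rose (background 20.2%). The slope was called lower in MYC-ON for 70 (background 25.2%) and higher for 4 (background 14.6%). From CT64 to CT76, 68 were lower (background 38.0%) and 12 higher (background 26.3%), with a median of -0.47 against -0.09 over all genes. Of 12 condensin and cohesin regulators, which shape and hold the chromosomes, 11 fell in MYC-ON. Of the 21 further kinesin, spindle and centrosome genes 17 fell, and of 27 further centromere and kinetochore genes 20 fell and 2 rose. Of 17 anaphase-promoting complex genes 10 fell and 3 rose, and of 12 DREAM and MuvB genes 7 fell and 3 rose.

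The largest called rises among them in SHEP were CENPP, a kinetochore gene, at 2.50 ± 0.09, the transcription factor E2F5 at 1.36 ± 0.05, the ubiquitin-conjugating enzyme UBE2S at 0.80 ± 0.06, the checkpoint ATPase TRIP13 at 0.71 ± 0.06 and ANAPC10 at 0.70 ± 0.05. CENPP had means of 4.25 TPM in MYC-OFF and 28.8 in MYC-ON. The largest falls were the kinesin KIFC1 (-0.92), CENPI (-0.84), the spindle pole protein ASPM (-0.77), GTSE1 (-0.74) and CKAP2L (-0.74). In SKNAS, 14 were higher (background 13.7%) and 25 lower (background 34.4%). With rescaled libraries these were 32 (background 27.6%) and 11 (background 23.9%), and using the covariate 34 (background 28.3%) and 9 (background 26.1%). E2F5 (1.05), UBE2S (0.92), MAD1L1 (0.89), CENPP (0.83) and PKMYT1 (0.78) rose the most as deposited, and CKAP2L (-1.38), NUSAP1 (-1.05), RBL2 (-0.93), FZR1 (-0.87) and ASPM (-0.82) fell the most. With the covariate the rises were 1.53, 0.71, 0.32, 0.99 and 0.66, and the falls were smaller, at -0.67 for CKAP2L, -0.14 for NUSAP1, -0.057 for RBL2, -0.22 for FZR1 and -0.45 for ASPM. For comparison, of the 33 S phase genes 11 were higher (background 33.0%) and 8 lower (background 38.9%) in SHEP MYC-ON. Of these 33, 24 were higher (background 29.8%) and 2 lower (background 34.6%) from CT24 to CT40. From CT64 to CT76, 1 was higher (background 26.3%) and 24 were lower (background 38.0%).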

How the data were processed

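Poly-A RNA was sequenced from 83 libraries in 4 groups, and groups and CT were taken from the sample labels. The deposited values are TPM that the authors estimated with Salmon 1.3.0 (per the processing notes) against a Gencode annotation of GRCh38, and each library sums to 1e+06, so that the read depth of each library is unknown here. The authors tested counts with DESeq2, and as TPM are not counts, limma 3.58.1 (R 4.3.3) was run here on log2(TPM + 1). Genes with a mean of at least 1 TPM in a line were tested, with CT as a factor for levels and as hours divided by 24 for slopes. Level calls needed p, Benjamini-Hochberg adjusted over all genes, at or under 0.05 and a log2 change of at least 0.15, and slope calls the adjusted p alone. Scripts were tested on simulated data.

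The members and lists were chosen with earlier results of these data known. Named in full were members past 1.5-fold, up to 6 with the largest rise and fall per line, the 6 largest slope differences, and CDK1, CCNB1, PLK1, AURKB, MKI67 and FOXM1. Of the 45 genes, 26 overlap another annotated gene, 21 with one on the other strand, and whether counting used strand is not given in the sources used here. Alternatives were a pseudocount of 0.1, no filter, median-of-ratios rescaling, the library median as covariate, a replicate block, series means and leaving out a series or time points. The U2OS line and another SKNAS time course were not analysed here.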

Additional observations from a re-analysis of the deposited data

Results flagged for a closer look

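The MYC effect differed between the lines for 8 of the 45 genes, by limma's test of the difference itself. This was SKNAS minus SHEP on the log2 scale, Benjamini-Hochberg adjusted over 12306 genes. Of all genes, 10.6% were called above 0 and 38.3% were called below 0. UBE2C was at 0.47 (adjusted p = 0.0038), from -0.13 in SHEP and 0.34 in SKNAS. WEE1 was at -0.74 (adjusted p = 0.00132), from 0.35 and -0.39. KIF20A was at -0.86 (adjusted p = 0.00528), from 0.47 and -0.39, and HMMR at -0.82 (adjusted p = 0.00734), from 0.50 and -0.32. CENPE was at -0.56, TPX2 at -0.40, CDC25B at -0.39 and BUB3 at -0.28, with adjusted p between 0.0195 and 0.0292. The median difference over the 45 genes was -0.14, against -0.24 over all genes. After rescaling, UBE2C (0.75), WEE1 (-0.47), KIF20A (-0.59) and HMMR (-0.55) were still called, with 6 members called above 0 and 3 called below. With the library median as covariate the 7 negative differences were no longer called, UBE2C was at 0.47, and 9 members were called above 0 and 0 below.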

How the results depend on the processing

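In SHEP, leaving out a series gave 7 to 10 members higher and 9 to 12 lower, and the library median as a covariate, chosen after the data were seen, gave 19 and 5. With that covariate the log2 change turned positive for CDK1 (0.12), CCNA2 (0.22), CCNF (0.015), CDC25C (0.048), NEK2 (0.044), INCENP (0.14), CDCA8 (0.063), BUB1B (0.11), TTK (0.0034), UBE2C (0.033), SPC25 (0.057), KIF2C (0.030), ECT2 (0.10), MKI67 (0.17) and FOXM1 (0.12). Without series 1 and without series 2, CCNA2 was at -0.10 and 0.014, CDC20 at -0.0041 and 0.28, and CENPF at -0.074 and 0.15. Series numbers were shared between conditions, and same-numbered series deviated together (Pearson's r = 0.489 over 14362 genes). With the replicate block, 14 members were higher and 16 lower, 39 fell in MYC-ON and 41 had a lower slope.

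Members rising in SHEP MYC-OFF numbered 0 to 3 without a series, 4 with the covariate, and 0, with 1 falling, without CT68, CT72 and CT76. Without these times, 18 fell in MYC-ON and 3 had a lower slope, against 26 without CT76 alone, and without series 1 or 2 26 and 35 had one. Slope differences turned positive without CT68 to CT76 for CDK1 (0.0024), CDC25C (0.26), NUF2 (0.14), HMMR (0.28), ECT2 (0.10) and TOP2A (0.13). Without series 1 and without series 2, CDC25C was at 0.036 and -0.14, HMMR at 0.068 and -0.32, and WEE1 at 0.20 and -0.081. CDC25C was at 0.086 without CT76 and 0.015 with the covariate, HMMR at 0.028 without CT76, and WEE1 at -0.0099 without CT24.

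In SKNAS, rescaling gave 12 higher and 4 lower, the covariate 21 and 3, and the 13 libraries with a median of at least 3.8 gave 0 and 0 with 1 residual degree of freedom. CDK1 was at 0.11 after rescaling, and FOXM1 at 0.041, at 0.40 with the covariate and at 0.0048 in those libraries. Without the last time point 1 member rose and 12 fell in SKNAS MYC-OFF. Between the lines, rescaling gave 6 members called above 0 and 3 below, and the covariate 9 and 0, with TPX2 at 0.0087. The 24 h rhythm gave 0 members with a pseudocount of 0.1, with the replicate block and without a series, and was not run with other scalings. Shares over all genes are not given for fits without a series or time points, with the replicate block, or for slopes with the covariate. Their member counts therefore have no background here. The cause of these changes was not tested, and TPM give no depth from which to set a detection limit.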
